A study of Homo sapiens with 2 samples.

Results

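The HA-METTL14 PAR-CLIP list of HepG2 cells placed 222 of its 5981 T-to-C sites on chromosome 20, 3.71% of the list (95% Wilson interval 3.26 to 4.22%). Every listed site on this chromosome was taken, from position 137722 to position 62724259 on build hg19. The chromosome was chosen by its number of sites per protein-coding gene, among the highest of the 22 autosomes, so that number is given as a description and carries no test. HepG2 is a human hepatocellular carcinoma line. The cells stably expressed METTL14 with an HA tag at the N terminus and EGFP at the C terminus from a lentiviral vector and had been sorted for high GFP. Before harvest, the cells took up 4-thiouridine from the medium for 16 h at 200 µM, and 3 rounds of 365 nm light followed. The series has 1 group of 2 libraries, and 1 list with 1 score per site covers both. The spread between replicates could therefore not be measured, and every interval below covers the counting of sites only.

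METTL14 is the RNA-binding partner of METTL3, and together they write N6-methyladenosine into nuclear RNA as it is transcribed. In PAR-CLIP, 4-thiouridine in RNA is crosslinked to a bound protein and is then read as C, so a listed site is a uridine with T-to-C changes in reads recovered with the tagged protein. How many sites a chromosome carries in such a list can vary with its genes, with how much each gene is transcribed and with the number of copies of the chromosome in the cell. HepG2 is an aneuploid line known to carry extra copies of chromosome 20, and neither copy number nor RNA level was measured in the file analysed here; their part in the count was not tested. Chromosome 20 has a short arm (20p), where GENCODE 29 places the liver transcription factor gene FOXA2 and the Notch ligand gene JAG1, and a long arm (20q). The long arm holds the liver nuclear receptor gene HNF4A, the tyrosine kinase gene SRC and YTHDF1, which encodes a reader of N6-methyladenosine. These genes are named as landmarks of the arms only. The site coordinates are on hg19 and the annotation is on GRCh38, so no site was assigned to a gene, and no sequence around a site is shown.

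Chromosome 20 carried 0.409 sites per protein-coding gene, 222 sites on 543 genes (95% Poisson interval 0.357 to 0.466). The other 21 autosomes averaged 0.298 ± 0.050 (SD over chromosomes) and ran from 0.198 on chromosome 15 to 0.416 on chromosome 16. Only chromosome 16 lay above chromosome 20, and chromosome 2 lay just below it at 0.407. At the pooled rate of the other autosomes, 543 genes would carry 162 sites, so the excess came to 59.9 sites.

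The neighbours of chromosome 20 in this order owed more of their sites to dense loci, which are runs of at least 5 sites no more than 1 kb apart. Outside such loci chromosome 20 kept 214 sites, or 0.394 per gene, and was the highest of the 22 autosomes, while chromosome 16 had 0.347 and chromosome 2 had 0.324. When same-strand sites within 1 kb were merged to 1, chromosome 20 had 0.355 per gene against 0.253 ± 0.034 (SD) on the others and was again the highest. Per Mb of protein-coding exon it carried 116 sites against 72.7 ± 15.8 (SD), the highest of the 22. Per Mb of gene span, introns included, it carried 7.88 against 4.88 ± 2.44 (SD), and chromosomes 16, 17 and 19 were higher.

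**Figure D1:**
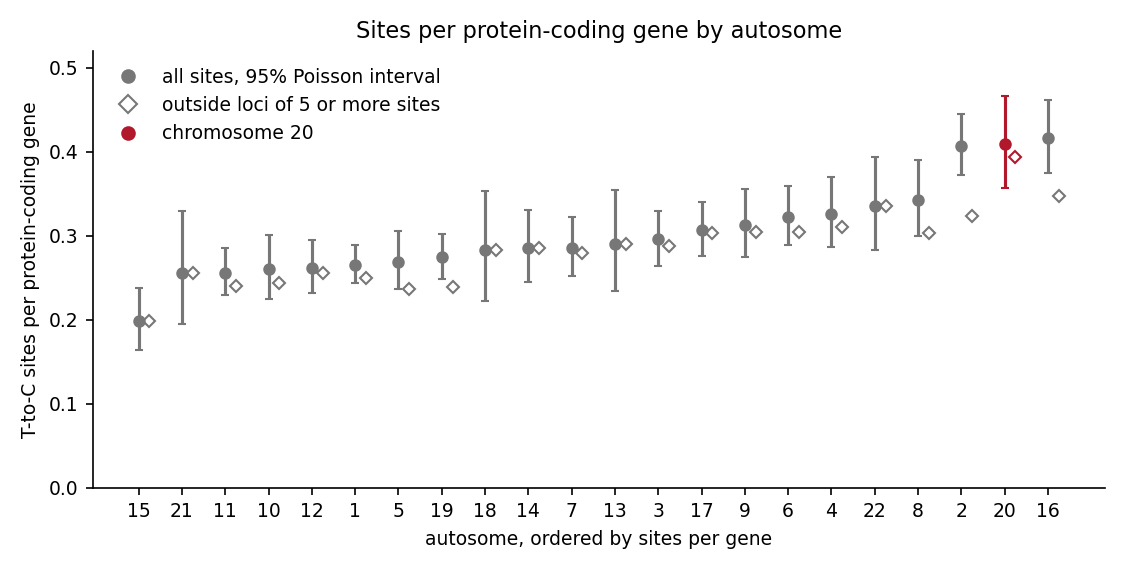
T-to-C sites per protein-coding gene (vertical axis) for each of the 22 autosomes, ordered by that value. Filled points are all sites with 95% Poisson intervals, open diamonds are sites outside loci of 5 or more sites, and chromosome 20 is in red. Chromosome 20 is next to the highest with all sites (0.409) and has the highest diamond (0.394).

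With sites of every score counted, most of the excess lay on the long arm. This arm held 159 sites on 358 genes, 0.444 per gene (0.378 to 0.519), and the short arm held 63 sites on 185 genes, 0.341 per gene (0.262 to 0.436). Against the pooled rate of the other autosomes, the long arm had 52.2 sites too many and the short arm 7.79. On the short arm 8 of the 63 sites lay in 1 dense locus. Without it the short arm had 0.297 per gene, close to the 0.277 of the other autosomes outside their dense loci, and the long arm, which has no dense locus, stayed at 0.444. The difference between the arms depended on the score. At scores of at least 5 the long arm had 0.249 per gene and the short arm 0.243, or 0.200 without the dense locus.

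Among 39 autosome arms (both arms of 17 autosomes and the long arm of the other 5), the long arm of chromosome 20 was the third highest in sites per gene. The arms 16p (0.466) and 2q (0.457) were above it, and the 37 arms of other chromosomes averaged 0.299 ± 0.064 (SD). Outside dense loci it was the highest of the 39, at 0.444 against 0.281 ± 0.046 (SD) for the other 37 and 0.365 for 16p, the next. The short arm ranked 10 with all sites and 13 outside dense loci, within 1 SD of the other arms in both cases. The intervals of the 2 arms of chromosome 20 overlapped, and the difference between them was not tested.

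To see where along each arm the sites per gene were high, the short arm was divided into 4 equal parts and the long arm into 5. Parts ran from the first to the last site on hg19, and from the first to the last protein-coding gene on GRCh38, so a gene near a limit can fall into the neighbouring part. The highest of the 9 parts was that at the end of the long arm, with 57 sites on 86 genes, 0.663 per gene (0.502 to 0.859). This part, from 56154264 to 62724259, corresponds in GENCODE 29 to the part with GNAS, the gene of a G protein alpha subunit, and YTHDF1. The 4 other parts of the long arm had 0.375, 0.270, 0.398 and 0.433 sites per gene from the centromere outward. The other autosomes pooled had 0.298. These are values of the measure that chose the chromosome, so they are given as a description.

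The short arm had no such end. Its first part, at the tip, had 26 sites on 97 genes, 0.268 per gene, and the next parts had 0.333 and 0.433. Its last part, next to the centromere, had 0.442 with the dense locus and 0.256 without it. Parts with few genes had wide intervals, as with the 15 genes of the second part (0.108 to 0.778).

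**Figure D2:**
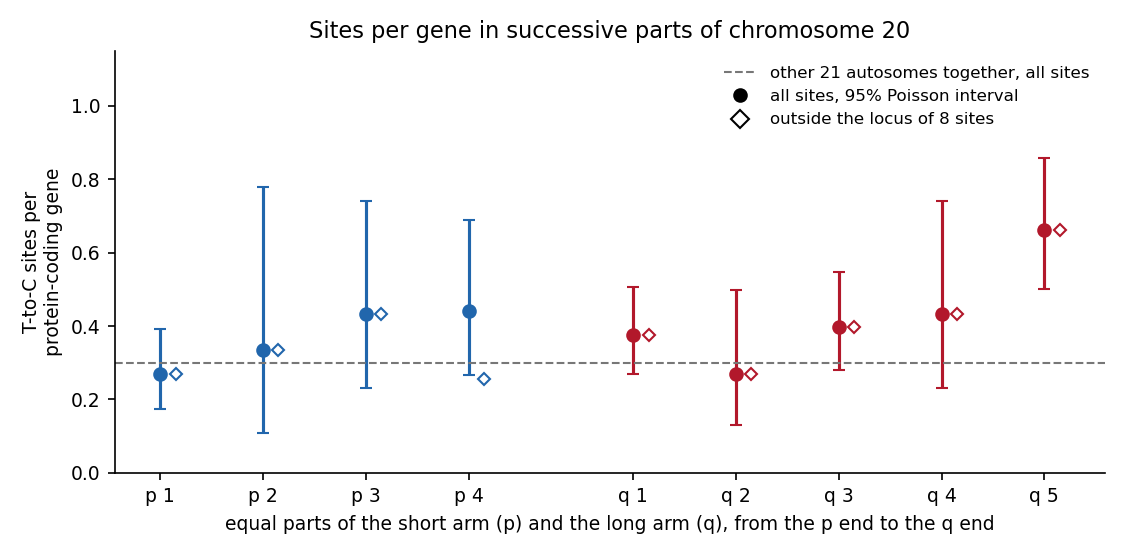
T-to-C sites per protein-coding gene (vertical axis) in 4 equal parts of the short arm and 5 of the long arm of chromosome 20, with 95% Poisson intervals. Open diamonds leave out the locus of 8 sites, and the dashed line is the value of the other 21 autosomes together (0.298). The last part of the long arm has the highest value (0.663) and the second part of the short arm, with 15 genes, the widest interval.

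A high value at the end of the long arm was not seen on chromosome 20 alone. The last of 5 equal parts held more sites per gene than the rest of the long arm on 15 of the other 21 autosomes, with a mean of 0.371 ± 0.131 (SD). Chromosome 20 had the highest value of the 22, at 0.663, and chromosome 18 was close at 0.657, from 23 sites on 35 genes. These parts differed in length, from 6.20 Mb on chromosome 19 to 29.4 Mb on chromosome 2, with 6.57 Mb on chromosome 20. The ranking therefore compares ends of unlike length. Over the rest of the long arm chromosome 20 had 0.375 sites per gene against 0.278 ± 0.074 (SD) on the others, the second highest of the 22, so the arm was above the average outside its last part as well.

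Along the chromosome, bins of 1 Mb ranged from 0 to 21 sites. The 3 bins at the end of the long arm, from 60 to 63 Mb, held 18, 11 and 21 sites. Together these 50 sites were 31.4% of the long arm's sites (24.7 to 39.0%), and all lay between 60617316 and 62724259. They were 29 plus and 21 minus sites with a median score of 5 and a highest score of 27, and merging same-strand sites within 1 kb left 43. The other full bins of the long arm were those from 30 Mb with 13 sites, from 43 Mb with 10, from 35 Mb with 8 and from 44 Mb with 7.

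On the short arm the fullest bins were that from 26 Mb, whose 8 sites were all in the dense locus, and those from 0 and 17 Mb with 7 sites each. No bin of the short arm reached 10 sites, against 5 bins of the long arm. The longest stretches without a site were from 12269064 to 16245523 on the short arm (3.98 Mb), from 26190343 to 29874281 across the centromere (3.68 Mb) and from 37321635 to 40084558 on the long arm (2.76 Mb).

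**Figure D3:**
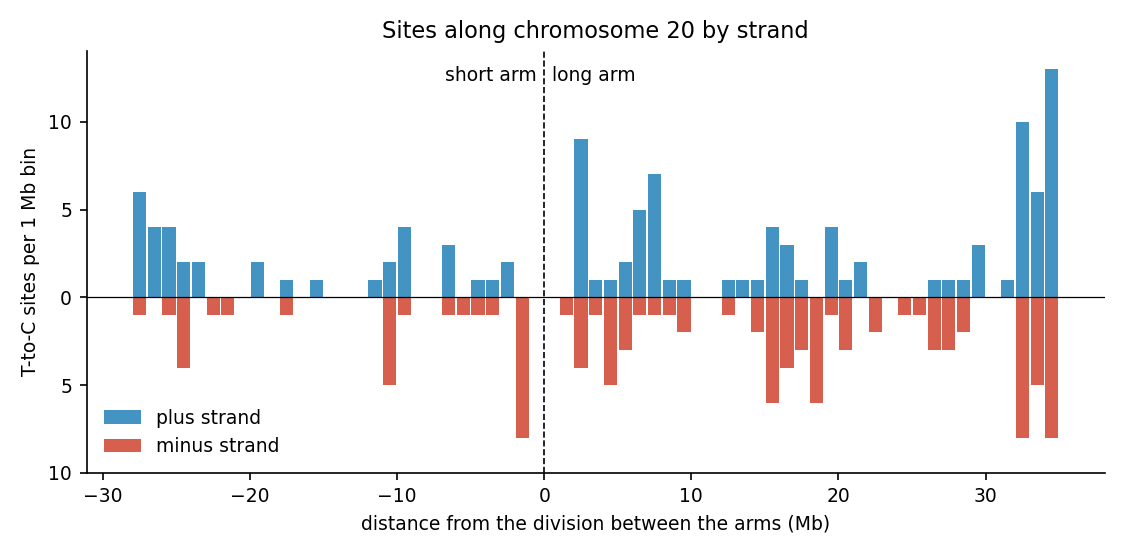
Number of T-to-C sites per 1 Mb bin along chromosome 20, plus-strand sites upward and minus-strand sites downward, against the distance in Mb from the division between the arms (dashed line). The 3 bins at the end of the long arm hold 18, 11 and 21 sites, and sites lie on both strands of each.

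These bins did not make chromosome 20 more uneven than other autosomes. Its 10 fullest bins held 110 sites, 49.5% (43.0 to 56.1%), but 10 bins are a larger part of a short chromosome. Taken as the fullest 10% of bins, 7 of 63 on chromosome 20, they held 40.1% of its sites against 45.5 ± 6.1% (SD) on the other autosomes, which placed it at rank 18 of 22. Empty bins made up 22.2% of chromosome 20 (14 of 63) against 39.5 ± 11.6% (SD), and 28.6% of its bins had at least 5 sites against 13.6 ± 12.7% (SD). Chromosomes 17 and 19 had fewer empty bins (19.5 and 10%) and more bins with at least 5 sites (32.9 and 55%). On chromosome 16 the share with at least 5 sites was also 28.6%. The sites of the fullest 10% of bins were also left out of every autosome, while all genes stayed in the count. Chromosome 20 then had 0.245 sites per gene against 0.161 ± 0.023 (SD), the highest of the 22. With the sites of 10 bins left out of each instead, it had 0.206 against 0.185 for the others pooled. Because the genes of those bins were kept, neither value is the rate per gene outside them.

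The score shows which kind of sites made up the excess. The deposited score is a whole number of at least 3, and the sources used here name no unit for it. Counted in sites, most of the excess had scores from 4 to 13. Chromosome 20 had 125 sites with a score from 4 to 13, or 0.230 per gene (0.192 to 0.274) against 0.147 ± 0.027 (SD) on the others, the highest of the 22 autosomes and 45.3 sites above their pooled rate. Of these, 93 were on the long arm, 0.260 per gene (0.210 to 0.318). This class includes the score of 4, next to the lowest. At scores of at least 5 the excess was 39.9 sites on the chromosome, against 59.9 with all sites. On the long arm it was 26.9 against 52.2. At the lowest score, 3, chromosome 20 had 50 sites, 7.47 above the pooled rate, and from 14 to 99 it had 36, 11.8 above it. Outside dense loci the 4 classes kept this order: 46.4 sites above the pooled rate from 4 to 13, 11.02 from 14 to 99, 7.94 at a score of 3, and none at 100 and up, with 8 sites and 0.015 per gene against 0.019 ± 0.007 (SD). These counts also follow the size of each class. As ratios to the pooled rate, the classes had 1.18 at a score of 3, 1.57 from 4 to 13, 1.49 from 14 to 99 and 0.70 at 100 and up. Outside dense loci the ratios were 1.19, 1.60, 1.52 and 0.82.

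Sites with scores of 100 and up were not in excess. Chromosome 20 had 11 such sites, 0.020 per gene (0.010 to 0.036) against 0.028 ± 0.011 (SD), or rank 16 of 22. Over all scores of at least 14, the whole chromosome had 0.087 per gene against 0.073 on the other autosomes pooled, 7.15 sites above their rate, and ranked 7. The long arm then had 26 sites, 0.073 per gene (0.047 to 0.106), and the other autosomes also had 0.073, or 0.057 outside their dense loci, which is still within that interval. At scores of at least 5 it had 0.249 per gene (0.200 to 0.306) against 0.173.

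With all sites the long arm had more sites per gene than the short arm. At scores of at least 5 the arms were close when the dense locus was counted, and at scores of at least 14 the order turned. At scores of at least 5 the short arm had 45 sites, 0.243 per gene (0.177 to 0.325). Of them, 21 had at least 14, 0.114 per gene (0.070 to 0.174). In the dense locus lay 7 of these 21. Outside the locus the short arm had 0.200 per gene at scores of at least 5 (0.141 to 0.276) against 0.154 on the other autosomes, and 0.076 at 14 (0.041 to 0.127) against 0.057. Both intervals include the values of the other autosomes. At scores of at least 14 the long arm had 0.073 per gene (0.047 to 0.106), close to the 0.076 of the short arm outside the locus.

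**Figure D4:**
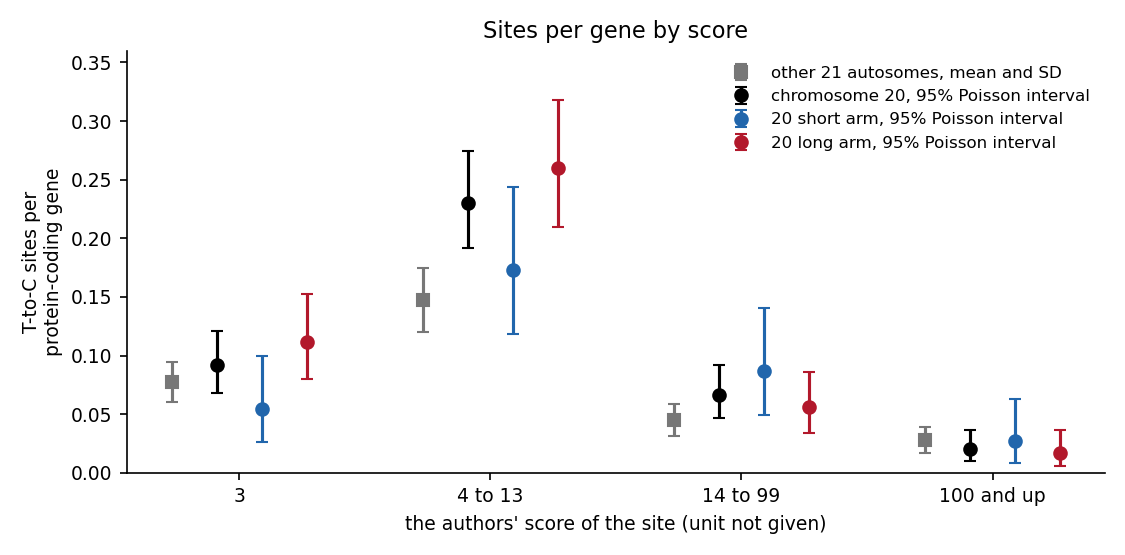
T-to-C sites per protein-coding gene (vertical axis) in 4 classes of the authors' score. Grey squares are the mean and SD over the other 21 autosomes, and points are chromosome 20 and its arms with 95% Poisson intervals. Chromosome 20 stands farthest above the other autosomes in the class from 4 to 13 (0.230 against 0.147) and is below their mean at 100 and up.

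The median score of chromosome 20 was 5 (95% order-statistic interval 5 to 6), with quartiles of 4 and 11.8, and the median over the 5514 sites of the other autosomes was also 5. Chromosome 20 had a smaller share of its sites at both ends of the range than most autosomes, although per gene its sites with a score of 3 were above the pooled rate. Sites with a score of 3 were 22.5% (17.5 to 28.5%) against 26.1 ± 3.7% (SD over autosomes), and sites with at least 100 were 4.95% (2.79 to 8.65%) against 9.20 ± 2.98% (SD), rank 20 of 22. Outside dense loci the latter share was 3.74% (1.91 to 7.20%) against 6.78 ± 2.55% (SD), at the same rank.

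By arm, the short arm had a median of 8 (6 to 12), the highest of the 39 arms together with that of chromosome 21, against a mean of 5.47 ± 0.85 (SD) over the other arms. The long arm had a median of 5 (4 to 6), an interval that meets that of the short arm. Outside the dense locus the median of the short arm was 7 (5 to 9), which overlaps the interval of the long arm. Only 15.9% of the short arm's sites had the lowest score (8.86 to 26.8%) against 25.2% on the long arm (19.1 to 32.4%), and these intervals overlap.

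A handful of sites carried the summed score of chromosome 20. The highest were a pair on the plus strand of the short arm, 15251 at 17469757 and 13629 at 17469773. This pair made up 77.6% of the summed score of the chromosome. Next on the short arm were 2298 at 26190207, 1101 at 26189470 and 255 at 26189009, all on the minus strand in the dense locus. The long arm had its highest scores on the minus strand as well, 1553 at 55934205, 370 at 55935372, 190 at 53339636, 174 at 37062505 and 173 at 56255315. All 5 lay outside the last 3 bins, where the highest score was 27. The long arm's sites summed to 3857 and the short arm's to 33359.

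The only dense locus of chromosome 20 lay at the centromere end of the short arm, from 26189009 to 26190343, with 8 sites on the minus strand within 1335 nt. From left to right its scores were 255, 31, 36, 1101, 8, 95, 2298 and 27. Its median score of 65.5 was above the 5 of the whole chromosome, and it held 10.3% of the summed score. It was the last group of sites before the stretch without sites at the centromere. One more locus had at least 3 sites, at 32879306, 32879340 and 32879341 on the minus strand of the long arm, with scores of 19, 10 and 10.

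The strands of chromosome 20 were balanced. It had 117 plus and 105 minus sites, 52.7% plus (46.1 to 59.2%, exact binomial p = 0.46, adjusted p = 0.639 over 25 chromosomes). In that test 6 of the 25 chromosomes of the list, 24.0%, had unequal strands at an adjusted p under 0.05, and chromosome 20 was not among them. After merging of same-strand sites within 1 kb, its plus share was 53.4% of 193 sites (exact binomial p = 0.388, adjusted p = 0.881), and 0 of 25 chromosomes (0.00%) passed. Sites of 1 transcript are not independent, so these p-values treat as separate what can share reads.

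The long arm had 81 plus and 78 minus sites, 50.9% plus (43.2 to 58.6%), and the short arm had 36 plus and 27 minus, 57.1% plus (44.9 to 68.6%). The value of the short arm depended on the dense locus, whose 8 sites are all minus. Outside it the short arm had 36 plus and 19 minus sites, 65.5% plus (52.3 to 76.6%), a share that was not tested. Plus sites were then the more frequent in each of its 4 parts, with 18 plus and 8 minus in the first, 4 and 1 in the second, 7 and 6 in the third and 7 and 4 in the last. The parts hold few sites, and the intervals of their plus shares were wide. In order they were 50.0 to 83.5%, 37.6 to 96.4%, 29.1 to 76.8% and 35.4 to 84.8%. Sites with a score of at least 100 were more frequent on the minus strand. They were 9 of 105 minus sites (8.57%, 4.57 to 15.5%) and 2 of 117 plus sites (1.71%, 0.470 to 6.02%). Of the 9, 3 were in the dense locus, and the difference was not tested. The 2 plus sites had the highest scores of the chromosome, 15251 and 13629.

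The longest run of neighbouring sites on 1 strand was 12 plus sites from 62372564 to 62724259, at the very end of the long arm. It was preceded by a run of 8 minus sites from 62190256 to 62271380, within 81.1 kb. A run of 8 minus sites from 60892526 and one of 9 minus sites from 45853037 were also on the long arm. The short arm had a run of 9 plus sites from 656296 to 2637543. Another run of 9 minus sites, from 26189009 to 29874281, crossed the centromere and included the 8 sites of the dense locus. These runs were picked for their length.

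Lone sites, with no other site within 1 kb on either strand, made up a share of chromosome 20 close to that of the other autosomes: 171 of 222 sites, 77.0% (71.1 to 82.1%), against 76.4 ± 7.0% (SD). Per gene there were 0.315 lone sites against 0.226 ± 0.031 (SD), the highest of the 22 autosomes and 50.7 sites above the pooled rate. Tight pairs, with a neighbour on the same strand within 30 nt, were fewer than on most autosomes: 16 sites or 7.21% (4.48 to 11.4%) against 12.4 ± 4.1% (SD), rank 19 of 22. Outside dense loci the share was 6.54% (3.94 to 10.7%) against 9.45 ± 3.03% (SD). The 16 sites formed 8 pairs, 2 on the short arm and 6 on the long arm. In the 6 pairs of the long arm the scores ran from 3 to 10, far below the 15251 and 13629 of the first pair of the short arm.

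At longer distances the sites of chromosome 20 were closer together than on most autosomes. The median distance between neighbours was 80.4 kb, the fourth shortest of the 22. The medians of the other autosomes averaged 196 ± 129 kb (SD), and the median over all their 5493 pairs was 125 kb. On chromosome 20 it was 131 kb on the short arm and 65.7 kb on the long arm. Of 221 neighbouring pairs, 29.0% (23.4 to 35.3%) were 10 to 100 kb apart against 19.5 ± 6.3% (SD), and 5.88% (3.47 to 9.80%) were over 1 Mb apart against 17.1 ± 8.8% (SD). In the last 3 bins of the long arm the median distance was 22.4 kb. Distances between neighbours are tied to the number of sites per Mb and are no separate result. Chromosome 20 had a mean of 3.52 sites per 1 Mb bin against 2.14 ± 1.38 (SD), rank 4 of 22.

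Close neighbours shared a strand on chromosome 20 as elsewhere. All 29 pairs within 1 kb lay on 1 strand, 100% (88.3 to 100%), and on the other autosomes 889 of 920 did, 96.6% (95.3 to 97.6%). From 1 to 10 kb the share was 24 of 27, 88.9% (71.9 to 96.1%), from 10 to 100 kb it was 39 of 64, 60.9% (48.7 to 71.9%), and from 100 kb to 1 Mb it was 43 of 88, 48.9% (38.7 to 59.1%). The other autosomes had 84.6%, 61.7% and 51.6% at these distances, all within the intervals of chromosome 20.

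**Figure D5:**
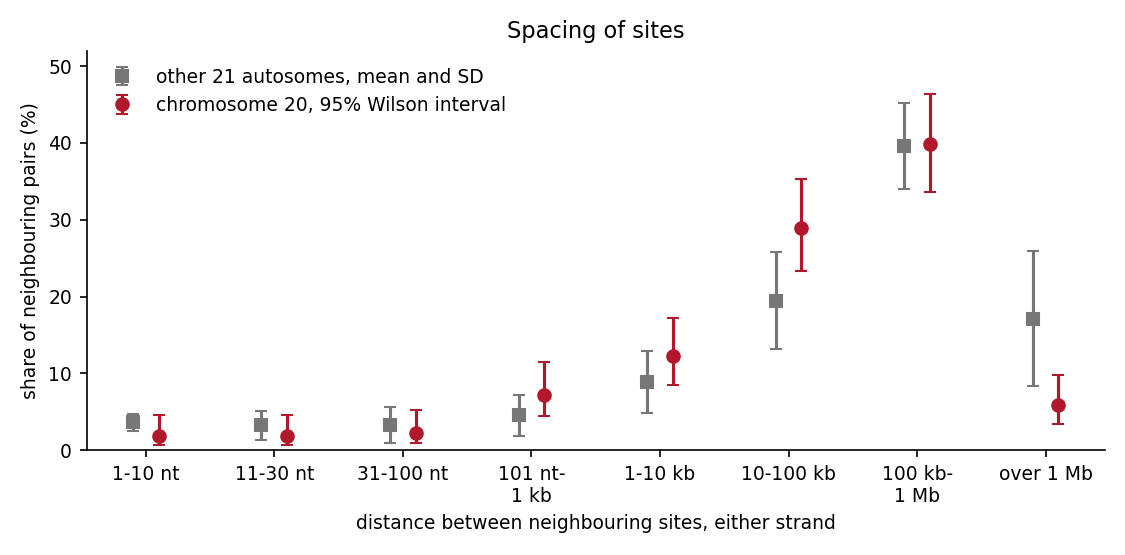
Share of neighbouring pairs of sites, on either strand, in 8 classes of distance. Red points are chromosome 20 with 95% Wilson intervals and grey squares are the mean and SD over the other 21 autosomes. Chromosome 20 has more pairs 10 to 100 kb apart (29.0% against 19.5%) and fewer over 1 Mb apart (5.88% against 17.1%).

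With a limit of 10 kb in place of 1 kb, chosen after the sites were seen, 3 groups of at least 5 sites formed on chromosome 20. Besides the dense locus these were 10 sites from 60878761 to 60913127, 4 plus and 6 minus with a median score of 8, and 7 sites from 62185413 to 62200860, 1 plus and 6 minus with a median score of 6. Both lay in the last 3 bins of the long arm. The 25 sites of the 3 groups were 11.3% of chromosome 20, and the other autosomes had 8.5 ± 7.7% (SD) of their sites in such groups.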

How the data were processed

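PAR-CLIP sites of HA-METTL14 in HepG2 cells were taken from 1 list over 2 libraries (1 group). The build was hg19 and the tools were Bowtie 1.1.2, cutadapt 1.13 and FastQC 0.11.5, per the submitters' processing notes. The score is the authors' value as deposited. The site names carry the caller name rbsSeeker; its settings, the pooling of libraries, the treatment of reads with several matches and the read depth are not stated in those sources.

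The middle base of each 201-nt interval, 1-based, was the site. Protein-coding genes, merged exons and gene spans came from GENCODE 29 (GRCh38) as totals per chromosome, arm or part, each build on its own scale; coordinates were not converted. Arms were divided at 28 Mb on chromosome 20, and elsewhere at whole Mb from general knowledge of the assemblies. The rule first written, the longest stretch without a site, fell inside the short arm and was replaced once this was seen. Regions named are the 10 fullest bins, loci of at least 3 sites and the 5 highest scores per arm; no gene was named from sites. Strand shares were tested by two-sided exact binomial tests with Benjamini-Hochberg adjustment. The tests were first run on simulated data in which the strand of each site was drawn independently. Those data therefore did not cover neighbouring sites that share a strand. Intervals are 95% Wilson, exact Poisson or order-statistic. Python 3.11.15, scipy 1.17.1 and pandas 2.3.3 were used. The chromosome and the tests were chosen with earlier results of these data known.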

Additional observations from a re-analysis of the deposited data

How the results depend on the processing

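Of 49 values recomputed over 10 results, 28 did not move: they lay within the reported interval, kept the strand test's outcome without a change of direction or, per Mb of exon or gene span, kept their ratio to the other autosomes within the interval of the reported ratio. Of the 49, 5 used settings chosen after seeing the data. The division of the arms at 28 Mb was also chosen then, and 2 of the 49 used the rule it replaced. The cause was not tested for any that moved, beyond what a setting removes by construction. Sites per gene of chromosome 20 (0.409) were 0.247 at scores of at least 5, 0.087 at 14, 0.355 with same-strand sites within 1 kb merged, 0.206 without the 10 fullest bins and 0.245 without the fullest 10% of bins. They were 116 per Mb of exon and 7.88 per Mb of gene span. Where full bins were left out, their genes stayed in the count. The ratio to the other autosomes, 1.37 as reported, was 1.42, 1.18, 1.42, 1.11, 1.51, 1.58 and 1.73 in that order. The short arm (0.341) had 0.243 at scores of at least 5 and 0.114 at 14; the long arm (0.444) had 0.249 and 0.073, and 9.77 per Mb of gene span. With arms divided at the longest stretch without a site, which lies in the short arm, the short arm had 0.168 and the long arm 0.534, since sites and genes then no longer cover the same stretch. The 10 fullest bins held 56.7% of sites at scores of at least 5 and 61.7% at 14, and the 20 fullest of 500 kb held 56.8%. Same-strand neighbours fell to 3.60% at 10 nt. Sites outside dense loci were 85.1% at scores of at least 14. The median score was 9 at scores of at least 5. The plus share, 52.7%, crossed to 40.4% of 47 sites at scores of at least 14 (exact binomial p = 0.243). No paired analysis was possible because both libraries belong to 1 group, and no library could be left out because the list gives 1 value over both. Read depth is unknown, so a stretch without sites is not shown to be unbound.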
